A study of Mus musculus with 6 samples.

Results

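The thrombospondin family of the mouse has 5 genes, Thbs1, Thbs2, Thbs3, Thbs4 and Comp. They were taken as the probe sets whose platform annotation names exactly 1 gene symbol, equal to one of these. Each of the 5 genes had 1 such probe set, so the family makes up 5 of the 22180 named genes tested. The series profiled total RNA from cultured cells of the exorbital lacrimal gland on 6 Affymetrix Mouse Gene 2.0 ST arrays. The labels call the cells myoepithelial, the contractile cells that lie around the secretory acini. The cells of 3 arrays came from female TSP1 null mice and those of the other 3 from female wild-type C57BL/6J mice, and neither group was treated. Cells released with collagenase were kept in serum-containing medium for some weeks, with no sorting step named. TSP1 is the protein thrombospondin-1, made from Thbs1, and the series uses its loss as a mouse model of dry eye disease. The labels give neither the age of the mice, nor the strain on which the null allele was kept, nor the part of Thbs1 that was disrupted, so strain and genotype cannot be told apart. They call the arrays biological replicates without saying how many animals or cultures lay behind each, so the tests measure the spread between these arrays.

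Thrombospondins are secreted, calcium-binding glycoproteins that sit in the extracellular matrix and at the cell surface, where they change how cells attach, move and respond to growth factors. Thrombospondin-1 and thrombospondin-2 form trimers and carry the type 1 repeats through which they bind the receptor CD36 and restrain blood vessel growth. Thrombospondin-3, thrombospondin-4 and the Comp protein, cartilage oligomeric matrix protein, form pentamers without those repeats. The comparison asks how the family is expressed where its first member has been targeted.

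Thbs2 and Thbs3 had higher signals on all 3 TSP1 null arrays than on any wild-type array, by 2.02-fold and 1.42-fold. Thbs1 had lower signals on all 3 null arrays, by 1.6-fold, and still ranked among the brightest genes there. Thbs4 and Comp overlapped between the groups. No member passed the threshold of an adjusted p of 0.05 in limma, a linear model test run over all genes, and neither did any other gene (0 of 22180, 0%).

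Promoter sequence is shown for Thbs2 and Thbs3, the members with higher signals in the null group, so that the differences can be read beside it. RefSeq's promoter table for GRCm38.p6 held 3 of the 5 members, Thbs2, Thbs3 and Thbs4. Each entry runs from 250 bases before to 50 bases after the start site, 5′ to 3′ on the strand of the gene. Capitals mark matches, on either strand, to any of 5 short motifs described after the sequences. The Thbs2 window is chr17:14694213-14694512 on the minus strand, and the Thbs3 window is chr3:89214930-89215229 on the plus strand.
Thbs2: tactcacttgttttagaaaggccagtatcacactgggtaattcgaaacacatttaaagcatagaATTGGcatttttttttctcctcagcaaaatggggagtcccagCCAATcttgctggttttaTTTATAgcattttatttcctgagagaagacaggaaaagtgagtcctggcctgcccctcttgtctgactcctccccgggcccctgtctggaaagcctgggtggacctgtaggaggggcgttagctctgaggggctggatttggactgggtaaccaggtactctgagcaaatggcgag
Thbs3: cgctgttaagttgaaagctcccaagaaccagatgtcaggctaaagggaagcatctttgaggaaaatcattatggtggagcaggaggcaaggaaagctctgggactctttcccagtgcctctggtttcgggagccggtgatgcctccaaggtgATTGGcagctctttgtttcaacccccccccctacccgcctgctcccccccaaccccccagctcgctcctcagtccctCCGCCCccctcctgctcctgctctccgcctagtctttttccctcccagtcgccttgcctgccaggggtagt

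The motifs searched were TATAAA (the TATA box), then CCAAT (the CCAAT box), then GGGCGG (the GC box bound by Sp1), then CACGTG (an E-box of the kind bound by USF and Myc proteins) and finally TGACTCA (an AP-1 site). None of them contains another. The Thbs2 window held 2 CCAAT matches, at positions -144 and, on the opposite strand, -186 relative to the start site, and 1 TATAAA match on the opposite strand at -126. The Thbs3 window held 1 CCAAT match at -98 and 1 GGGCGG match at -21, both on the opposite strand. CCAAT was the motif that both windows shared, and it was found in 37.4% of the 32851 promoters of the table. GGGCGG was found in 35.7% and TATAAA in 13.6% of them. Neither window held CACGTG (7.15% of promoters) or TGACTCA (5.2%). The windows differed in base composition, with 48.3% G and C for Thbs2 and 59% for Thbs3. The Thbs4 window, with 72% G and C, was richer in these bases than 93.1% of promoters and held 3 GGGCGG matches and none of the other motifs. These matches describe the letters of the windows only.

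All values given here are log2 signals as deposited, on which a step of 1 is a doubling. The array medians lay between 5.25 and 5.32. As a guide to what a silent gene reads, the 1394 olfactory and vomeronasal receptor genes, not expected in a gland culture, had a median of 3.32 and a 95th percentile of 5.19. Of the 6 Y-linked genes measured, which female cells lack, the median was 3.69, but Sry read 6.17. The targeted locus was not silent on the null arrays. Acta2, the smooth muscle actin of myoepithelial cells, lay between 13.85 and 14.01 on the 6 arrays, whereas Trp63, which encodes the basal cell factor p63, lay between 4.47 and 4.93, below the 95th percentile of the receptor genes. Of the 9 myoepithelial markers measured, 8 lay above that percentile. The contractile genes among them were bright, with means of 12.03 for Cnn1, 12.35 for Tagln and 8.81 for Myh11. The basal keratins were nearer to the percentile, with means of 5.67 for Krt14 and 5.30 for Krt17. They differed by 0.89 (SE 0.20) and 0.82 (SE 0.23), with adjusted p of 0.29 and 0.337 in limma. With Trp63 (0.27, SE 0.12) they were higher in the null group with no overlap, 3 of 9 markers against 10.1% of all genes. Myh11 differed by 0.40 (SE 0.26), Cdh3 by 0.17 (SE 0.30) and Cnn1 by 0.06 (SE 0.17). Tagln differed by -0.04 (SE 0.15), Acta2 by -0.05 (SE 0.10) and Oxtr by -0.05 (SE 0.18). All 12 macrophage, all 10 fibroblast and all 6 pericyte markers also lay above that percentile. So did 5 of 6 luminal epithelial, 5 of 8 endothelial and 4 of 7 lacrimal acinar markers. Such counts do not single out a cell type. The mean of the macrophage list was 9.99, 10.83 and 8.14 on null arrays 1, 2 and 3 and 10.67, 11.35 and 11.46 on the wild-type arrays in order. Cd68, a defining macrophage marker, read 11.70, 12.16 and 9.66 on the null arrays and 12.46, 12.85 and 12.99 on the wild-type arrays. The mean of the fibroblast list was 10.59, 11.21 and 10.65 on the null arrays and 11.48, 10.25 and 10.48 on the wild-type arrays. All 12 macrophage markers had a lower mean in the null group, with a median difference of -1.50, and -0.72 without null array 3. Of them 10 were lower at an unadjusted p under 0.05 in limma (83.3% against 4.27% of all genes), and 0 passed the adjusted threshold. Null array 3 was lowest in macrophage markers, and null array 2 and wild-type array 1 were highest of their groups in fibroblast markers. In such bulk RNA, fewer cells of a type and less RNA per cell cannot be told apart.

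**Figure D1:**
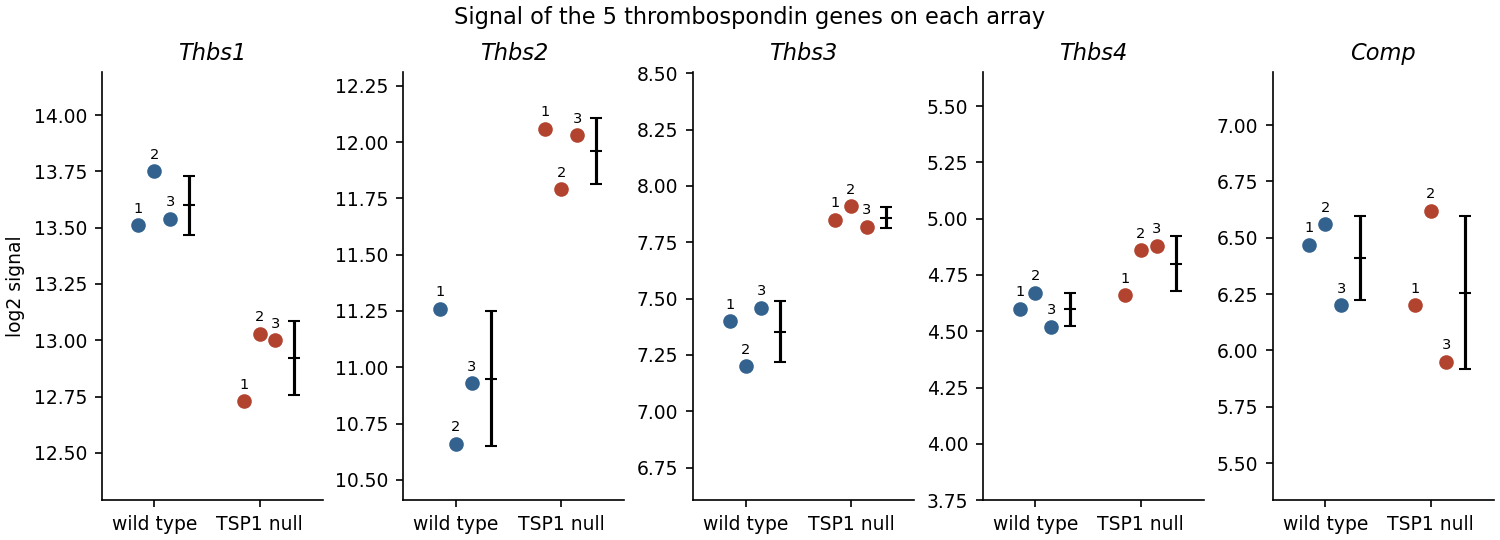
Log2 signal (y axis, each panel spanning the same number of log2 units) of the 5 thrombospondin genes on 3 wild-type (blue) and 3 TSP1 null (red) arrays, with the replicate number beside each point and the mean ± SD in black. The groups are apart for Thbs1, Thbs2 and Thbs3 and overlap for Thbs4 and Comp.

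Thbs1 (probe set 17374488) encodes thrombospondin-1, which binds CD36 and CD47 and activates latent TGF-beta. Its signals were 12.73, 13.03 and 13.00 on the null arrays and 13.51, 13.75 and 13.54 on the wild-type arrays. The highest null array lay 0.47 below the lowest wild-type array. The difference was -0.68 (SE 0.13, 95% interval -0.98 to -0.37, n = 3 per group), with an adjusted p of 0.25 in limma. The exact permutation test was two-sided and gave p = 0.1, the lower limit for groups of 3 and 3 arrays. Among all genes the difference was the 475th most negative, and the unadjusted p ranked 86th. The mean over the 6 arrays, 13.26, was higher than that of every olfactory and vomeronasal receptor gene. The labels and the annotation do not state which part of the transcript the probes read. The signal therefore neither checks the labels nor measures intact transcript. The probe set kept a residual SD of 0.15, close to the median of 0.17 over all genes. With the macrophage list mean as a covariate the difference was again -0.68, with a larger SE of 0.19. The adjusted p in limma was 0.826, and the smallest of any gene in that fit was 0.609. That list mean itself differed between the groups (9.65 null, 11.16 wild type). This covariate, here and below, can therefore not be cleanly separated from genotype, and the part of macrophages was not tested. The difference kept its sign when any single array was left out, from -0.73 without null array 2 to -0.58 without null array 1.

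Thbs2 (probe set 17341080) encodes thrombospondin-2, the other trimer, which inhibits vessel growth and is needed for normal collagen fibrils. It read 12.06, 11.79 and 12.03 on the null arrays and 11.26, 10.66 and 10.93 on the wild-type arrays. The lowest null array exceeded the highest wild-type array by 0.53. This was the largest difference in the family, 1.01 (SE 0.17, 95% interval 0.62 to 1.41, 2.02-fold), and the 45th most positive of all genes tested. Its unadjusted p ranked 46th of 22180, and its adjusted p in limma was 0.194. The exact permutation p was again 0.1, two-sided. The wild-type arrays spread more widely (range 0.60) than the null arrays (range 0.28), with wild-type array 1 the highest and array 2 the lowest of that group. Wild-type array 1 was also the one with the highest mean of the fibroblast list (11.48). In the null group, by contrast, array 2 had the highest list mean (11.21) and the lowest Thbs2 signal (11.79). Without wild-type array 1 the difference was 1.17, and without wild-type array 2 it was 0.87. With the fibroblast list mean as a covariate the difference was 0.99, and with the macrophage list mean it was 0.83 (adjusted p = 0.826 in limma). The fibroblast covariate was added after the data were seen. Of the 10 fibroblast markers, 6 had a higher and 4 a lower mean in the null group (median 0.13). The collagen genes Col3a1 (1.03, SE 0.27), Col1a2 (0.51, SE 0.11) and Col1a1 (0.54, SE 0.15) were higher in the null group with no overlap. They were 3 of the 10 markers, against 10.1% of all genes, and their adjusted p in limma was 0.29 to 0.325. The 4 with a lower mean were Lum (-1.05, SE 0.99), Dcn (-0.55, SE 0.32), Dpt (-0.40, SE 0.78) and Thy1 (-0.15, SE 0.17), all with overlap. The mean of the fibroblast list was 10.82 in the null and 10.74 in the wild-type group. With list means so close, the fibroblast covariate could move the difference little. The part of fibroblasts in the Thbs2 difference was not tested.

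Thbs3 (probe set 17399347) encodes thrombospondin-3, a pentamer best known from the growing skeleton. Its signals were 7.85, 7.91 and 7.82 on the null arrays and 7.40, 7.20 and 7.46 on the wild-type arrays. The null arrays lay within 0.09 of each other, and the lowest of them was 0.36 above the highest wild-type array. The difference was 0.51 (SE 0.11, 95% interval 0.24 to 0.77, 1.42-fold), 499th most positive among all genes, with an adjusted p of 0.29 in limma. The exact permutation p was 0.1, two-sided. The residual SD of 0.10 was lower than that of most genes, with 17.3% of genes at or below it. When single arrays were left out the difference ran from 0.43 without wild-type array 2 to 0.56 without wild-type array 3. With the macrophage list mean as a covariate it was 0.54 (SE 0.17, adjusted p = 0.826 in limma).

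Thbs4 (probe set 17294934) encodes thrombospondin-4, found in tendon and in muscle under strain. It read 4.66, 4.86 and 4.88 on the null arrays and 4.60, 4.67 and 4.52 on the wild-type arrays. Null array 1 lay just under wild-type array 2, so the groups overlapped. The mean of 4.70 was below the 95th percentile of the olfactory and vomeronasal receptor genes, and 114 of those 1394 genes read as high or higher. Thbs4 was therefore not told apart from a silent gene. Its difference was 0.21 (SE 0.11, 95% interval -0.06 to 0.47, adjusted p = 0.567 in limma).

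Comp (probe set 17501919) encodes the pentamer that organises collagen in cartilage and tendon. It read 6.20, 6.62 and 5.95 on the null arrays and 6.47, 6.56 and 6.20 on the wild-type arrays. The highest and the lowest of the 6 values both came from the null group. The difference was -0.16 (SE 0.19, 95% interval -0.59 to 0.28, adjusted p = 0.818 in limma), and the interval leaves room for a shift in either direction. Without null array 2, the highest, it was -0.34, without null array 3, the lowest, it was -0.00, and with the macrophage list mean as a covariate its sign turned, to 0.14. The mean of 6.33 was above 98.9% of the olfactory and vomeronasal receptor genes but near the signal that Sry gave in these female cells. Comp is best known in cartilage and tendon, whose markers were set against the receptor genes' 95th percentile, 5.19. Above it lay 3 of 7 cartilage and 4 of 4 tendon genes, beside 13411 of all 22180 genes. The 3 cartilage genes were Sox9 (mean 9.10), Col2a1 (6.79) and, only just, Col9a1 (5.23). Acan, the main cartilage proteoglycan, lay below it, at 3.99 to 4.32. Of the tendon genes, Fmod, a proteoglycan that fibroblasts also make, read 10.33 to 10.68. The means of the others were 8.24 for Tnmd, 6.99 for Scx and, only just above the percentile, 5.22 for Mkx.

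**Figure D2:**
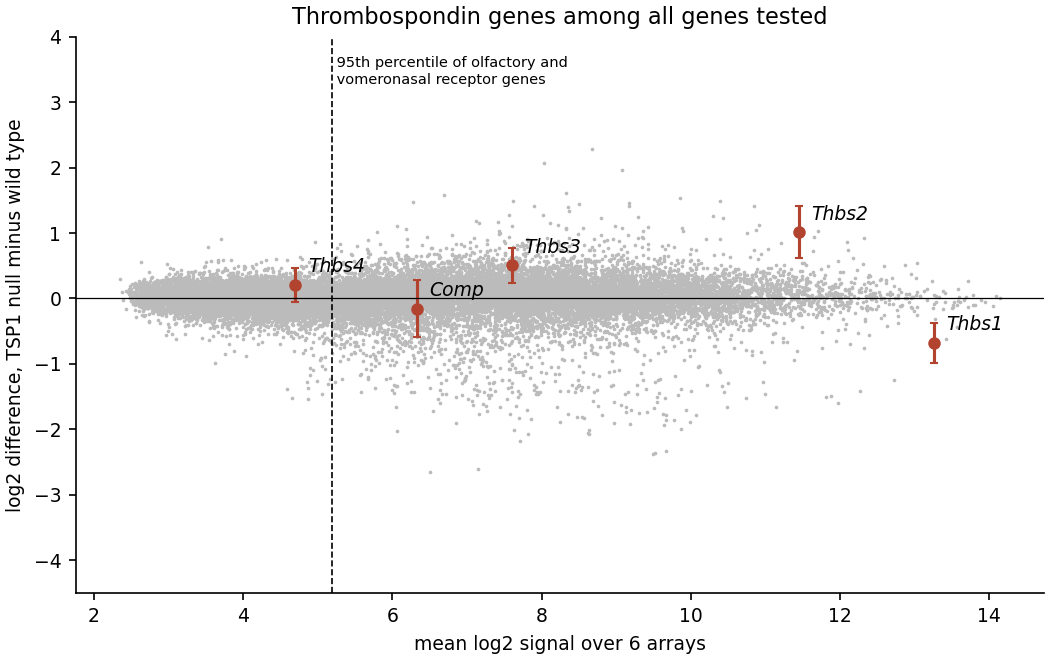
Difference of the group means (y axis, log2, TSP1 null minus wild type) against mean log2 signal over the 6 arrays (x axis) for 22180 genes (grey), with the 5 thrombospondin genes in red with 95% intervals. The dashed line is the 95th percentile of the olfactory and vomeronasal receptor genes, 5.19, and Thbs4 is the family member to the left of it.

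Counted together, 2 of the 5 members had a higher signal at an unadjusted p under 0.05, against 6.28% of all genes, and 1 had a lower signal at that limit, against 4.27%. Likewise 2 of the 5 members were higher with no overlap between the groups, against 10.1% of all genes. Lower with no overlap was 1 member, against 5.75%. In both counts the lower member was Thbs1, the gene targeted in the null mice. The members were chosen with earlier results of these data known. At the adjusted threshold 0 of 5 passed. Over all genes limma gave 2341 genes at an unadjusted p under 0.05, and an ordinary linear model gave 1904 and also 0 past the adjusted threshold. Without the genes below the receptor genes' 95th percentile limma gave 1781 of 13411, and 4 of the 5 members were in that fit. The members' median difference was 0.21, beside 0.02 over all genes. Leaving out null array 2 and wild-type array 1 together, a choice made after the data were seen that leaves 2 arrays in each group, gave Thbs2 a difference of 1.26 and an adjusted p of 0.0256. In that fit 365 genes passed, and the adjusted p was 0.0749 for Thbs1 and 0.166 for Thbs3. Thbs2 passed the threshold in this fit alone, and its adjusted p ran from 0.0771 to 0.826 over the alternatives that kept all arrays.

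**Figure D3:**
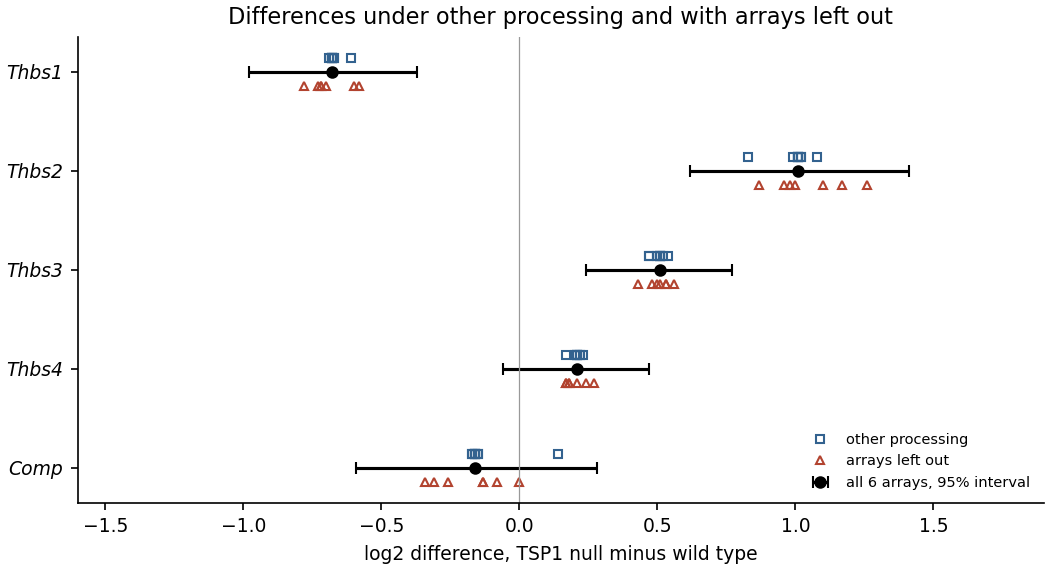
Log2 difference (x axis, TSP1 null minus wild type) of each member in the fit to all 6 arrays (black, with 95% interval), under other processing (blue squares) and with arrays left out (red triangles). Thbs1 stays between -0.78 and -0.58, Thbs2 between 0.83 and 1.26 and Thbs3 between 0.43 and 0.56, while Comp lies on both sides of 0.

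Thbs1 and Thbs2 lay on opposite sides, and their ratio within each array describes how far apart they were. The log2 ratio of Thbs2 over Thbs1, centred on its mean over the 6 arrays, was 1.14, 0.56 and 0.84 on the null arrays and -0.44, -1.28 and -0.81 on the wild-type arrays. The ratio was 3.22-fold higher in the null group (difference 1.69, SE 0.30). For Thbs3 over Thbs1 the difference was 1.18 (SE 0.18, 2.27-fold). That the groups do not overlap in these ratios follows from the separate genes and adds no evidence, so no test is given. For Thbs2 over Thbs3 it was 0.51 (SE 0.17), and here wild-type array 1 (0.01) and null array 2 (0.03) were nearly level. A ratio of this kind shows that a pair of probe sets differed unequally between the groups, not which transcript is more abundant.

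**Figure D4:**
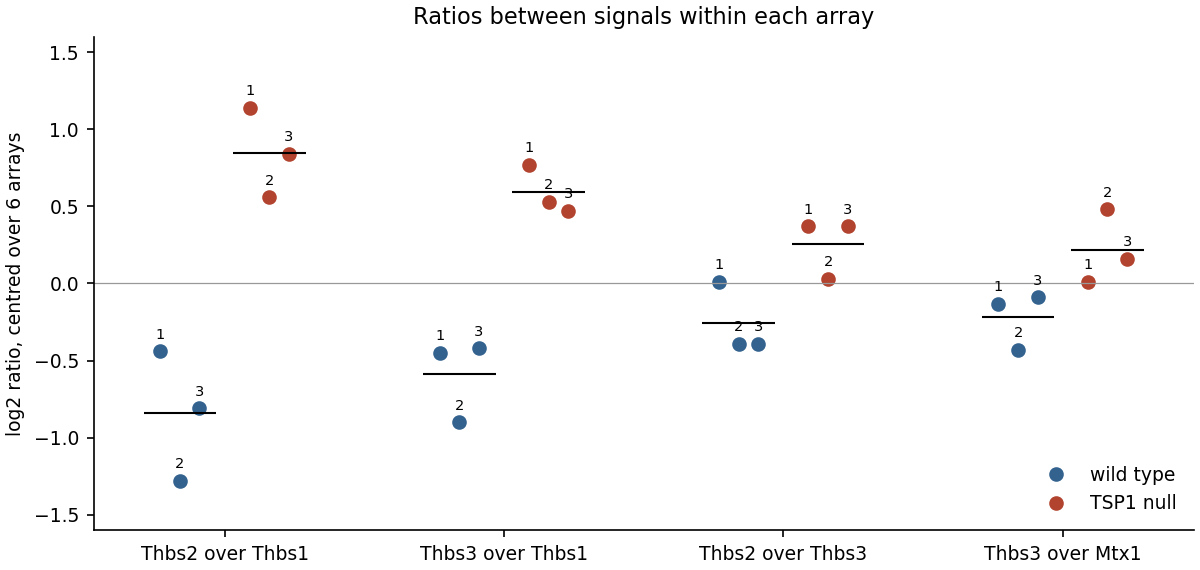
Log2 ratio between the signals of a pair of genes within each array (y axis, centred on the mean over the 6 arrays), for 3 wild-type (blue) and 3 TSP1 null (red) arrays with their replicate numbers and the group means as black lines. All null arrays lie above all wild-type arrays in each of the 4 ratios, by the least for Thbs2 over Thbs3 and Thbs3 over Mtx1.

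The genes beside the members on their chromosomes gave a local reference. The 2 nearest measured genes on each side of the 5 members, 20 genes in all, had differences from -0.31 to 0.45 and a median of 0.15. Of them 16 had a higher mean in the null group, against 55.1% of all genes, and 5 were higher with no overlap and 0 lower, against 10.1% and 5.75% of all genes. At the adjusted limma threshold 0 passed, and 1 of 20, Upf1 next to Comp, had an unadjusted p under 0.05 (difference 0.45, SE 0.19), against 6.28% of all genes higher at that limit. Mtx1, a mitochondrial import gene, lies next to Thbs3, is transcribed away from it and shares its promoter region. Mtx1 read 7.75, 7.34 and 7.57 on the null arrays and 7.44, 7.53 and 7.47 on the wild-type arrays, a difference of 0.07 (SE 0.13). The ratio of Thbs3 over Mtx1, picked after these values were seen, was 1.35-fold higher in the null group (difference 0.43, SE 0.17), with no overlap, and is given as a description. Muc1, an epithelial mucin on the other side of Thbs3, had a difference of 0.23 (SE 0.20). Beside Thbs1, the difference was 0.12 (SE 0.10) for Fsip1 and -0.31 (SE 0.25) for the predicted gene Gm13986. Beside Thbs2, Smoc2, another secreted matrix protein, differed by 0.06 (SE 0.12). Serinc5 and Mtx3, on either side of Thbs4, differed by 0.24 (SE 0.11) and 0.05 (SE 0.11).

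For each member above the receptor genes' level, the genes with the most similar profile were found by the root mean square difference between log2 signals, each gene centred on its own mean over the 6 arrays. The search covered 12556 genes above the receptor genes' 95th percentile, predicted loci left out, and these are descriptions over 6 arrays that share the group difference. Nearest to Thbs1 was Lrrc27 (0.072), followed by Cat, which encodes catalase (0.074), and Dcpp3, a secreted demilune cell protein (0.083). Cat read 11.71, 12.17 and 11.96 on the null arrays and 12.58, 12.91 and 12.60 on the wild-type arrays, with null array 1 lowest and wild-type array 2 highest, as for Thbs1. Nearest to Thbs2 was Nynrin (0.113), then Plat, which encodes tissue plasminogen activator (0.125), and Gprc5b, an orphan receptor (0.128). Plat read 9.84, 9.44 and 10.02 on the null arrays and 9.27, 8.52 and 8.71 on the wild-type arrays, with the same array lowest in each group as for Thbs2. Nearest to Thbs3 were the receptor tyrosine kinase gene Erbb2 (0.038), Maf1, a repressor of RNA polymerase III (0.046), and the membrane-anchored metalloproteinase gene Mmp17 (0.049). Nearest to Comp were Cst3, which encodes cystatin C (0.057), Dcxr, a sugar reductase (0.069), and Oit3 (0.085).

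Around the family, 4 lists of pathway genes were counted, drawn up with earlier results of these data known, and in every list 0 genes passed the adjusted threshold. Over all genes, 55.1% had a higher mean in the null group, and 6.28% were higher and 4.27% lower at an unadjusted p under 0.05. The lists hold few genes, so each of their shares rests on at most 5 genes a direction. Of 16 receptors and surface partners, 12 had a higher mean and 4 a lower one (median 0.15), and 2 in each direction (12.5%) met that limit. Sdc4, a heparan sulphate proteoglycan, and Notch3 differed by 0.75 (SE 0.19) and 0.73 (SE 0.23). Itga4, an integrin subunit, and Cd36, the scavenger receptor of the type 1 repeats, differed by -1.42 (SE 0.37) and -1.33 (SE 0.55). Both were lowest on null array 3, as were the macrophage markers, and the part of these cells in the values was not tested. Cd47, the receptor of the thrombospondin C-terminus, differed by 0.08 (SE 0.13), and Lrp1, which takes up thrombospondins from the surface, by 0.23 (SE 0.11).

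Of 20 proteases, matrix and growth factor partners, 14 had a higher mean and 6 a lower one, with a median of 0.27. At an unadjusted p under 0.05, 5 (25% against 6.28% of all genes) were higher, namely Col1a1 (0.54, SE 0.15), Adamts7 (0.45, SE 0.15), which cleaves the Comp protein, Mmp14 (0.36, SE 0.12), Hspg2 (0.33, SE 0.13) and Col2a1 (0.53, SE 0.22). The same limit was met in the other direction by 1 gene (5% against 4.27%), Tgfb1 (-0.58, SE 0.25). Tgfb1 read 9.75, 9.71 and 8.93 on the null arrays and 9.75, 10.08 and 10.32 on the wild-type arrays. It was lowest on null array 3, like the macrophage markers, and the part of these cells in its value was not tested. Mmp2, the protease that thrombospondin-2 helps to clear, differed by 0.39 (SE 0.20). Of 10 measured transcription regulators reported for Thbs1, 9 had a higher mean (median 0.07), and Smad3 (0.38, SE 0.14) and Usf1 (0.26, SE 0.11) met the unadjusted limit (20% of the list). Egr1 was uneven, from 6.78 on wild-type array 1 to 9.84 on null array 3. Of 34 other measured proteins with type 1 repeats, 26 had a higher mean (median 0.10). There 4 (11.8%) met the unadjusted limit, all higher, namely Spon2 (1.07, SE 0.36) and the cellular communication network genes Ccn4 (0.37, SE 0.13), Ccn5 (0.37, SE 0.15) and Ccn1 (0.41, SE 0.17). In size, the difference of Spon2 was the nearest of these to that of Thbs2, but its null array 2 (9.49) lay close to the wild-type arrays (9.25 to 9.42), whereas Thbs2 kept a gap of 0.53.

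**Figure D5:**
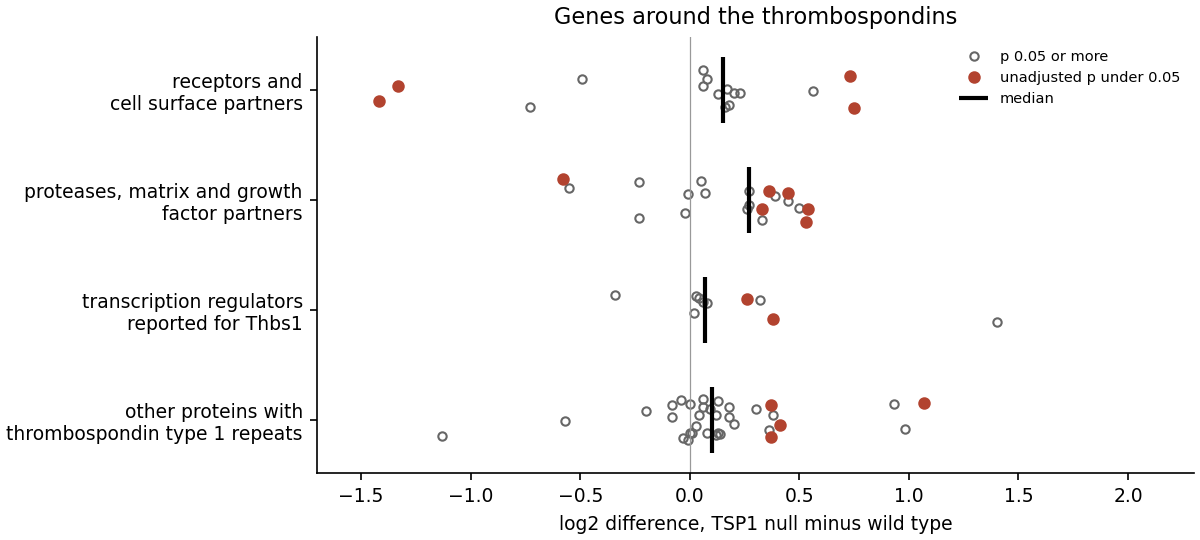
Log2 difference (x axis, TSP1 null minus wild type) of each measured gene in 4 lists around the thrombospondins, with filled red points for an unadjusted limma p under 0.05, open grey points for other genes, and a black bar at the list's median. The medians lie between 0.07 and 0.27, and genes lie on both sides of 0 in every list.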

How the data were processed

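Groups and replicate numbers came from the sample titles. Each array had 41345 probe sets with log2 values, which the authors deposited. Partek and RMA, a method that corrects background, equalises the arrays' distributions and summarises probes, are named per the submitters' processing notes, without versions or a genome build. RMA compresses the differences of dim genes. Precision is limited by the number of arrays. The platform annotation gave exactly 1 symbol for 23521 probe sets. Where a gene had several, the one with the highest mean was kept, leaving 22180 genes. Differences, as TSP1 null minus wild type, were fitted over all of these with limma 3.58.1 (lmFit and eBayes, R 4.3.3, no covariate) and Benjamini-Hochberg adjustment, and the members also had exact permutation tests. The procedure was tested on simulated data. Reference sequence and gene order came from RefSeq's GRCm38.p6 tables, while coordinates of the probe sets are not given, since their build is not named. Named genes were the members, list genes at an unadjusted p under 0.05 (or the 2 of smallest p), 2 neighbours per side and the 3 nearest profiles; Cd47, Lrp1, Mmp2, Egr1 and marker genes were added after their values were seen. Members and lists were chosen with earlier results of these data known. Trp53, Atf1, Adamts2 and Krt5 were not analysed here. Alternatives were 16 planned settings and 2 added later.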

Additional observations from a re-analysis of the deposited data

How the results depend on the processing

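Thbs1, Thbs2 and Thbs3 kept their direction under all 18 alternatives and Thbs4 under the 17 that could be fitted, since it is not in the fit without dim genes. Comp turned from -0.16 to 0.14 with the macrophage list mean as a covariate. Over the fits that left out 1 array, or null array 2 and wild-type array 1 together, Thbs1 ran from -0.78 to -0.58, Thbs2 from 0.87 to 1.26, Thbs3 from 0.43 to 0.56, Thbs4 from 0.17 to 0.27, Comp from -0.34 to -0.00 and the Thbs2 over Thbs1 ratio from 1.47 to 2.03. The joint omission, chosen after the data were seen, gave Thbs2 its only call at 1.26. The count of genes past the threshold, 0 with all arrays, was 2 on every deposited probe set, 34 without null array 2, 1 without wild-type array 1 and 365 in the joint omission, and it was 0 in the others. The median of the protease and partner list, 0.27, was 0.33 without dim genes and ran from 0.22 to 0.35 with arrays left out. With arrays left out, the receptor median of 0.15 ran from 0.05 (joint omission; 0.09 without null array 2) to 0.16, the regulator median of 0.07 from 0.02 (without null array 3) to 0.22 (joint; 0.21 without null array 2, 0.12 without wild-type array 1, 0.11 without array 2 or 3 of that group, and 0.13 with array weights) and the type 1 repeat median of 0.10 from 0.05 (joint; 0.06 without null array 2) to 0.12. With the replicate number as a block, the differences were -0.68 for Thbs1, 1.01 for Thbs2, 0.51 for Thbs3, 0.21 for Thbs4 and -0.16 for Comp, and 0 genes passed. Deviations from the group means correlated at -0.14, 0.18 and -0.16 for numbers 1, 2 and 3. Null array 1 with wild-type array 3 (0.25) and null array 3 with wild-type array 1 (0.26) were higher, so not every array correlated best with its own number, and the arrays share only a number. The cause of these changes was not tested. Thbs4 is limited by its signal, which was within that of silent genes.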
